A study of Mus musculus with 20 samples.

Results

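The early growth response genes Egr1, Egr2, Egr3 and Egr4 encode zinc finger transcription factors that bind GC-rich DNA. They are immediate-early genes, which cells switch on within minutes of a growth or stress signal without making new protein, and the corepressors Nab1 and Nab2 hold back Egr1, Egr2 and Egr3. In mice Egr1 is known for keeping hematopoietic stem cells (HSCs) quiescent and in their niche, Egr2 and Egr3 for T cell tolerance and Egr2 also for myelination, and Egr4 for male fertility. Their promoters are rich in CpG, and CpG-rich promoters are as a rule little methylated, whether or not the gene is transcribed.

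CpG methylation at these genes was read from reduced representation bisulfite sequencing (RRBS), in which the enzyme MspI cuts at CCGG and the CpG-rich fragments are bisulfite-converted and sequenced. The deposited value is the percent of methylated CpG calls in a bin of 100 bp. All 20 samples were HSCs of C57BL/6 mice (C57BL/6J in the methods), and they differed in how many cycles of 5-fluorouracil (5FU) the animals had received. 5FU kills dividing blood cells and thereby forces HSCs to proliferate. The groups were 0x (no 5FU, 4 samples), 2x (2 cycles, 6 samples), 4x (4 cycles, 4 samples) and 10x (10 cycles, 6 samples). By the study's methods the animals were young adult females at the first injection, the HSCs were sorted from bone marrow as lineage-negative, cKit+, Sca1+, CD34-, Flk2- and CD150+ cells about a month after treatment ended, and the untreated animals had reached early middle age by then. The labels give the tissue as blood and do not state how many mice a sample stands for, so the p-values below measure only the spread between these samples.

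A bin was a member if it lay from 5 kb upstream of the 5' end of one of the 4 genes to 2 kb past its end in the RefSeq annotation of GRCm38 (mm10). That held for 141 of the 1201951 bins, with 26 at Egr1 (chr18:34861207-34864956, plus strand), 40 at Egr2 (chr10:67534469-67542188, plus strand), 45 at Egr3 (chr14:70077317-70082613, plus strand) and 30 at Egr4 (chr6:85511121-85513589, minus strand). The family was selected on the measured promoter methylation of Egr4, which had been seen to be lower in 10x than in 0x. The values of Egr4 that involve 10x or 0x are therefore given as a description without a test, and the question put to the tests was whether Egr1, Egr2 and Egr3 differed too.

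The study filled bins that a sample lacked with the mean of its group, and the deposited values do not mark which were filled. The members were therefore sorted by whether a value other than 0 or 100 occurred more than once within a group. Such repeated values were present in 48 member bins, a further 26 held the same value of 0 or 100 in all 20 samples, and 67 had no repeated value and varied. The last set held 6 bins at Egr1, 17 at Egr2, 28 at Egr3 and 16 at Egr4, and the results rest on it unless stated. Over the whole genome, 36.1% of bins held a repeated value. A value filled in just 1 sample of a group occurs once and cannot be told apart from a measured one, and neither can a fill of 0 or 100.

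The number of reads behind each value is unknown. Between 63.5% and 78.1% of a sample's values were exactly 0 or 100, with the lowest shares in 10x sample 32 (63.5%) and 4x sample 06 (67.9%). Sample 32 also correlated with the mean of the other 10x samples at r = 0.967, against 0.884 to 0.894 for each of the others. This was over the bins that vary within 10x, those with repeated values included. Promoters of genes of the HSC gate and programme were low, as 6 of 7 with bins averaged under 20% (Kit 2.17%, Mecom 8.14%), while 5 of 7 promoters of lineage genes outside the gate averaged over 50% (Elane 90.7%).

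Over all 141 member bins, those with repeated or constant values included, the methylation was set beside the number of CpGs in the reference genome. The 113 bins that averaged under 20% methylation held 1 to 17 CpGs with a median of 8, and 69 of them lay in promoters, taken as bins within 1 kb of a curated RefSeq transcription start site (TSS). The 13 bins between 20% and 80% held 2 to 11 CpGs with a median of 3, and 2 of them lay in promoters. The 15 bins that averaged 80% or more held 1 to 8 CpGs with a median of 2, and 0 of them lay in a promoter. The ranges overlapped, and of the 67 bins without repeated values 64 were in the lowest class, 3 in the middle one and 0 in the highest.

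**Figure D1:**
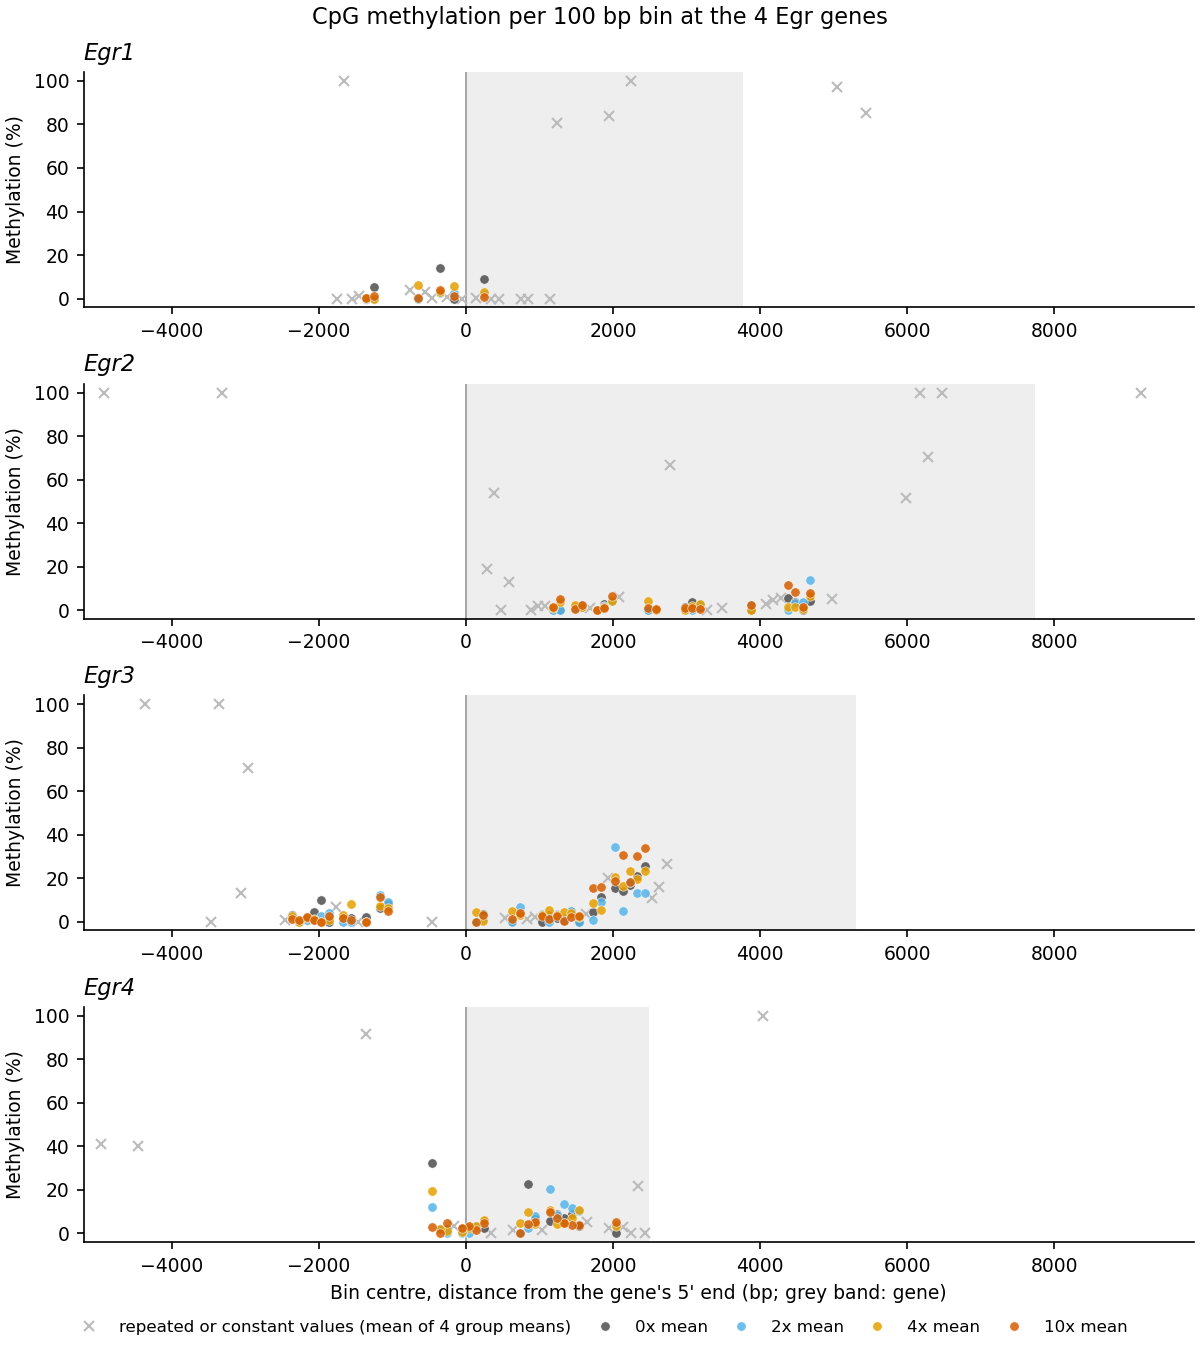
CpG methylation (percent, y axis) of each member bin against the distance of its centre from the 5' end of the gene (bp, x axis, transcription runs to the right), with 1 panel per gene and the gene as a grey band. Coloured points are the means of the 0x (n = 4), 2x (n = 6), 4x (n = 4) and 10x (n = 6) samples in the 67 bins without repeated values, and crosses are the other 74 bins. Nearly all points near the 5' ends lie under 20%, 2 bins of Egr4 stand out in 0x at 32.5% and 22.8%, and methylation of Egr3 is higher about 2 kb past the 5' end.

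The reference sequences below are those of the bins on which the Egr4 and Egr3 results turn, written on the coding strand of each gene from GRCm38, with every CpG in capitals. The Egr4 upstream bin, chr6:85514000-85514099, lies 411 bp or more before the TSS with its centre at 460 bp, and the Egr4 coding bin, chr6:85512700-85512799, lies in a coding exon, with its centre 839 bp past the TSS. The Egr3 bin, chr14:70079400-70079499, lies in the coding part of the last exon, with its centre 2132 bp past the 5' end of the gene.
Egr4 upstream bin: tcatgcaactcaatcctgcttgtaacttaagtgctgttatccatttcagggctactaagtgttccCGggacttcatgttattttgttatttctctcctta
Egr4 coding bin: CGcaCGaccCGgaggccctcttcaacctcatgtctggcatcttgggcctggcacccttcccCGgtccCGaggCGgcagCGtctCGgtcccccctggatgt
Egr3 coding bin: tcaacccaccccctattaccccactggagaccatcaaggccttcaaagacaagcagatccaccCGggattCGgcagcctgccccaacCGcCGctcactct
The Egr4 upstream bin holds 1 CpG, which is part of its single CCGG, and its GC content is 39%. The coding bin of Egr4 holds 8 CpGs and 2 CCGG sites at a GC content of 69%, and the Egr3 bin holds 4 CpGs and 1 CCGG site at 60%. The methylation of the Egr4 upstream bin is thus the methylation of a single CpG.

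The 250 bp directly before the Egr4 TSS are shown because the 4 bins that overlap them had group means of 0% to 4.56%, 1 of them with repeated values. This stretch, chr6:85513590-85513839 on the minus strand from the RefSeq promoter of GRCm38, holds 28 CpGs at a GC content of 68%.
Egr4 promoter: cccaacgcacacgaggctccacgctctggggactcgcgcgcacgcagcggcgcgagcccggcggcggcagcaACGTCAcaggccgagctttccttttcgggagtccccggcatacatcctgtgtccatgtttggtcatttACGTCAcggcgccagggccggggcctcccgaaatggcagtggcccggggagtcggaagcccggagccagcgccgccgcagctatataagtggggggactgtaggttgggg
Capitals mark ACGTCA, a part of the cAMP response element through which CREB-type factors act on immediate-early genes. It occurs at 2 places, 178 to 173 bp and 110 to 105 bp before the TSS. On either strand ACGTCA was present in 6.47% of 32851 RefSeq promoter windows of the same length. The whole element TGACGTCA (1.55% of windows) and the EGR sites GCGGGGGCG (2.57%) and GCGTGGGCG (0.536%), searched on both strands, were not in the Egr4 window. Of the Egr2 windows, which overlap each other, 3 of 5 held ACGTCA and 4 of 5 held a CArG box, the site of serum response factor, which 1.47% of all windows held and the Egr4 window did not. Windows of Egr1 and Egr3 are not given here, so the motifs were not compared across the whole family.

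At Egr4 the promoter, averaged over its 10 bins without repeated values, had 5.40%, 3.50%, 1.95%, 2.65%, 1.08% and 2.81% methylation in the 10x samples, against 8.84%, 7.04%, 7.98% and 6.20% in the 0x samples. The groups did not overlap, and 1.12% of all 19729 gene promoters had every 10x sample below every 0x sample. In narrower windows the groups did overlap. Within 500 bp of the TSS the highest 10x sample had 5.99% and the lowest 0x sample 2.89%. With bins upstream of the TSS only, these were 6.37% and 4.04%. Over the 10 bins the mean was 2.90% ± 1.48 in the 6 10x samples and 7.51% ± 1.14 in the 4 0x samples (SD). That is -4.62 percentage points for 10x minus 0x. It was -4.57 points without 10x sample 32. Among samples labelled 01 to 12 it was -3.49 points and among those labelled 13 to 34 it was -4.97 points.

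This difference lay in 2 of the 10 bins. The upstream bin with its single CpG had 12.3%, 3.66%, 0%, 0%, 2.13% and 0% in the 10x samples, against 40.6%, 20.8%, 48.1% and 20.2% in the 0x samples. Every 10x sample was below every 0x sample, and the means differed by -29.4 points. The coding bin had 6.07%, 7.37%, 2.21%, 4.87%, 5.19% and 0% in the 10x samples, against 16.2%, 27.2%, 15.6% and 32% in the 0x samples, again without overlap and with a difference of -18.5 points. Over all bins without repeated values that vary between these groups, 0.500% had every 10x sample below every 0x sample, and 7.87% were lower by at least 10 points.

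The remaining 8 promoter bins of Egr4 held no such difference. Their mean was 4.45%, 3.0%, 2.16%, 2.70%, 0.430% and 3.51% in the 10x samples, against 3.94%, 2.81%, 2.00% and 1.23% in the 0x samples, which overlap and differ by 0.217 points. This split of the promoter was made after its values were seen. The 6 unrepeated Egr4 bins outside the promoter, of which 5 are coding and 1 is untranslated, averaged 5.69% ± 2.79 in the 10x samples and 5.64% ± 2.18 in the 0x samples (SD).

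**Figure D2:**
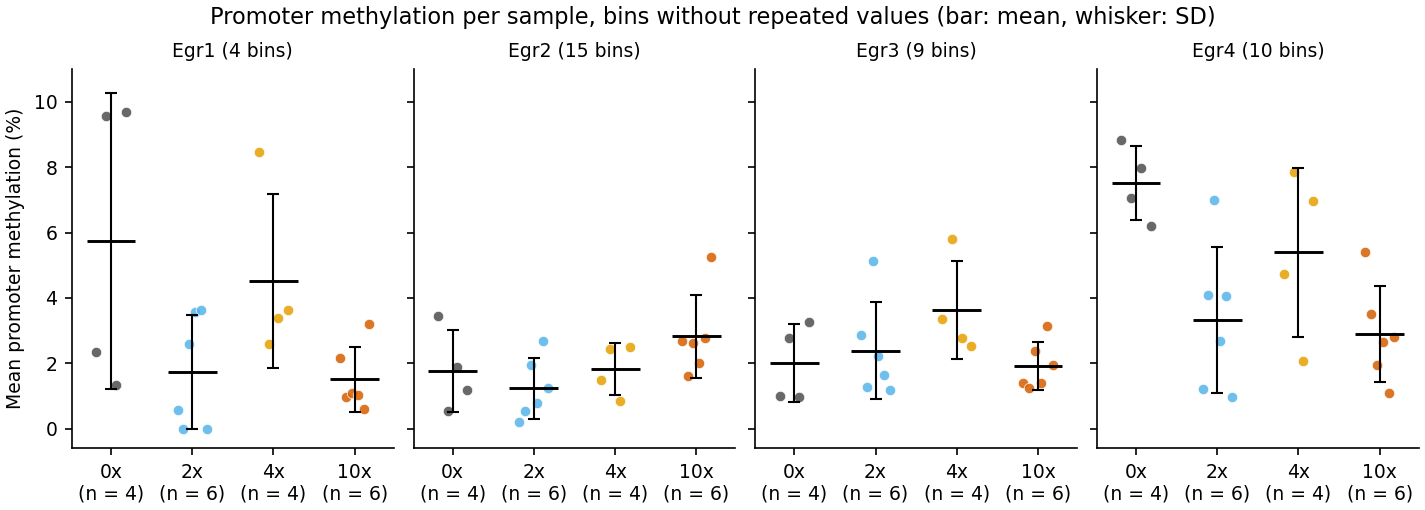
Mean promoter methylation (percent, y axis) of each sample by group (x axis) over the bins without repeated values, 1 panel per gene. Points are samples, bars are group means and whiskers are SDs. The 6 Egr4 samples of 10x (1.08% to 5.40%) lie below the 4 of 0x (6.20% to 8.84%), whereas the groups overlap at Egr1, Egr2 and Egr3.

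The intermediate groups varied widely at the same places. In the order 0x, 2x, 4x and 10x the Egr4 promoter averaged 7.51% ± 1.14, 3.33% ± 2.24, 5.40% ± 2.59 and 2.90% ± 1.48 (SD), so that it did not fall step by step with the cycles. The upstream bin was at 0% in 4 of the 6 2x samples, with 47.8% and 25% in the other two, and had 0%, 26.3%, 13.5% and 37.1% in the 4x samples. The coding bin was at 0% in 5 of the 6 2x samples and at 15.2% in the sixth, and had 26.0%, 6.17%, 0% and 7.88% in the 4x samples. In that bin every 2x sample was below every 0x sample, as in 1.51% of all such bins. In the upstream bin, by contrast, both 2x and 4x overlapped 0x. Between 4x and 2x, which the choice of the gene did not use, the Egr4 promoter differed by 2.07 points (SE 1.49, limma adjusted p = 0.551, where 2.07% of promoters passed). The same test gave 2.79 points for Egr1, 0.586 for Egr2 and 1.23 for Egr3, with adjusted p of 0.382, 0.701 and 0.571. Without 4x sample 06 the differences were 1.26 points for Egr4, 0.377 for Egr2 and 0.503 for Egr3, and without 4x sample 05 that of Egr1 was 1.47 points.

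**Figure D3:**
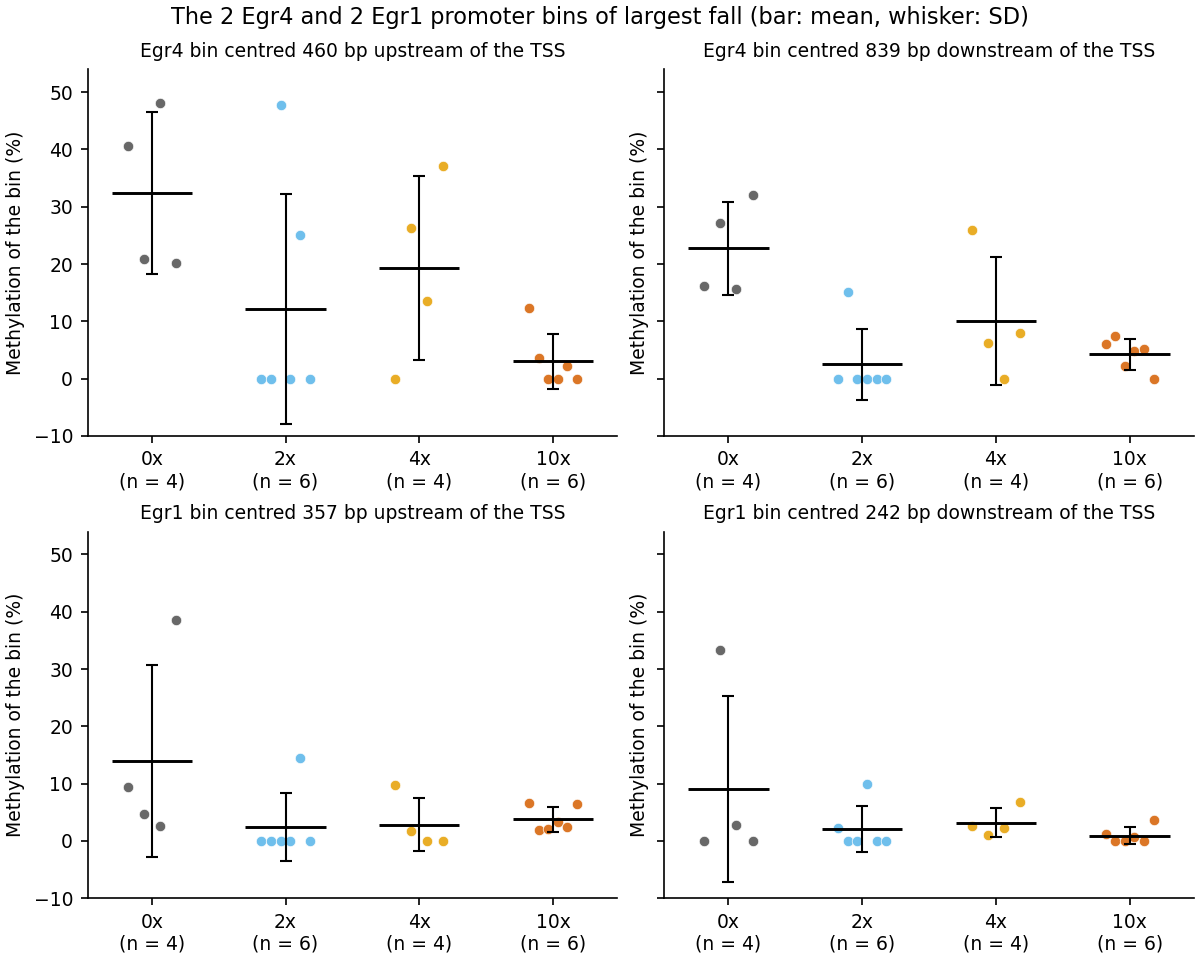
Methylation (percent, y axis) per sample by group (x axis) in the 2 Egr4 and the 2 Egr1 promoter bins with the largest fall in 10x. Points are samples, bars are group means and whiskers are SDs. In both Egr4 bins all 6 samples of 10x lie below all 4 of 0x, while in each Egr1 bin a single 0x sample, at 38.6% or 33.3%, stands above the rest.

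On whether Egr1, Egr2 and Egr3 shared the lower methylation in 10x, none of them passed the test, which does not show that they were unchanged. Of their 50 bins that varied between 10x and 0x, 0 were called at a limma adjusted p under 0.05 with at least 10 points, against 1.09% of all 246086 bins tested, and 1 had an unadjusted p under 0.05, against 6.27% of all. Lower by at least 10 points were 1 Egr1 bin, 0 Egr2 bins and 1 Egr3 bin, against 7.87% of all bins. Of the 50 bins, 0 had all 10x samples below (0.500% of all) or above (1.25% of all) all 0x samples. Of these 50 bins 29 were higher and 21 lower in 10x, with a median difference of 0.783 points. Bins with spread in every group seldom passed anywhere. Of the 84131 unrepeated bins in which every group varies, 11 were called over the whole series. Of 14717 promoters averaged over such bins, 0 passed.

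Egr1 was nearest to Egr4 in size but not in the spread of its samples. Its 4 promoter bins averaged 2.17%, 0.959%, 1.09%, 1.01%, 0.591% and 3.19% in the 10x samples, against 2.36%, 9.58%, 1.34% and 9.69% in the 0x samples. Only 2 of the 4 0x samples, 02 and 14, lay above the 10x samples. The difference of -4.24 points (SE 1.79) had a limma adjusted p of 0.585, where 0.943% of 19729 gene promoters passed an adjusted p of 0.05. The values of sample 14 came from the bin centred 357 bp upstream, which had 38.6% in it and 2.65% to 9.42% in the other 0x samples, against 1.94% to 6.57% in the 10x samples. Those of sample 02 came from the bin centred 242 bp downstream, in a coding exon, which had 33.3% in it and 0% to 2.70% in the other 0x samples, against 0% to 3.70% in the 10x samples. The remaining promoter bins of Egr1 averaged 1.13% and 0.165% in 10x, against 0% and 0.0924% in 0x.

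Egr2 has 6 curated start sites, so that its promoter took in 15 unrepeated bins. Their mean was 2.68%, 1.62%, 2.61%, 2.00%, 2.76% and 5.25% in the 10x samples, against 3.44%, 0.526%, 1.89% and 1.19% in the 0x samples. The groups overlapped and 10x was the higher by 1.06 points (SE 0.875, limma adjusted p = 0.688). The single bins differed by -2.92 to 5.93 points. The largest rise was in the intron bin centred 4380 bp past the 5' end, with 0% in 3 of the 6 10x samples and 14.7% to 26.9% in the others, against 0% to 16.3% in the 0x samples.

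The Egr3 promoter showed the smallest difference of the 4 genes. Its 9 unrepeated bins averaged 1.39%, 1.25%, 2.39%, 1.41%, 3.14% and 1.95% in the 10x samples, against 0.984%, 2.77%, 0.977% and 3.26% in the 0x samples, a difference of -0.0780 points (SE 0.710, limma adjusted p = 0.967). At Egr3 3 bins differed by at least 10 points, of which 2 in the last exon were higher in 10x and 1 upstream was lower. The share of all bins with such a difference in either direction was not computed. The upstream bin, chr14:70075300-70075399, was at 0% in all 10x samples, against 0%, 25%, 0% and 15.2% in the 0x samples. The coding bin shown above had 40.8%, 42.6%, 14.98%, 33.3%, 17.3% and 34.7% in the 10x samples, against 12.2%, 6.17%, 23.2% and 14.6% in the 0x samples. The groups overlapped, as 2 of the 6 10x samples lay below the highest 0x sample. This was the 1 bin with an unadjusted p under 0.05, at 16.6 points (SE 6.30), and its limma adjusted p was 0.637. The bin centred 1732 bp past the 5' end was also higher in the mean, by 11.04 points (SE 5.72), with a limma adjusted p of 0.637 and with 3 of the 4 0x samples at 0%.

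Over the 7 unrepeated bins of that stretch of the last exon, chosen after their values were seen and so given no test, the mean was 23.9%, 15.4%, 24.5%, 22.4%, 23.0% and 30.5% in the 10x samples, against 17.8%, 14.8%, 18.4% and 11.2% in the 0x samples. The difference was 7.75 points, and it was 3.35 points among samples labelled 01 to 12 and 10.3 points among those labelled 13 to 34.

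**Figure D4:**
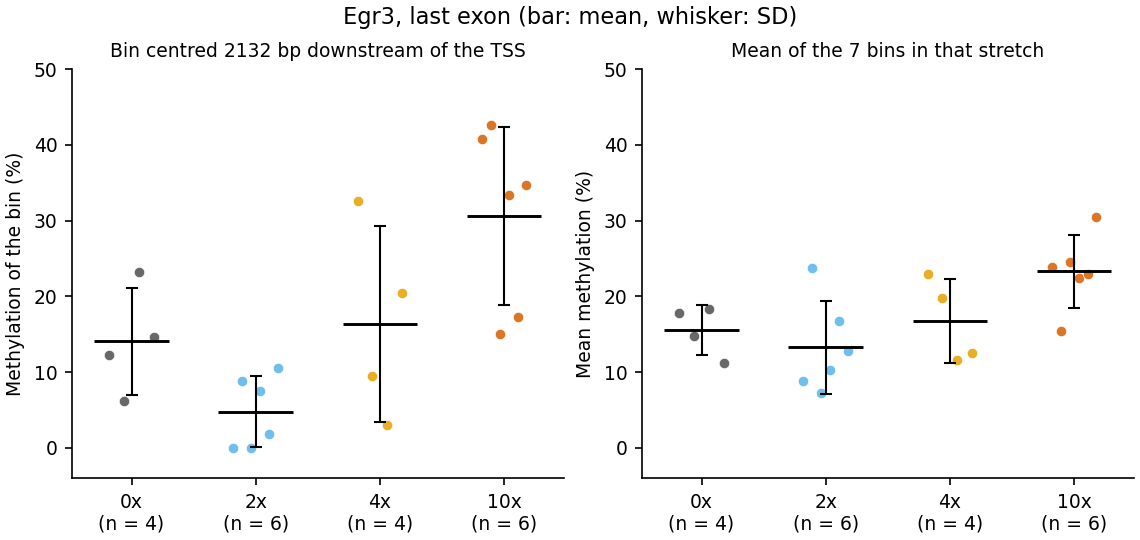
Methylation (percent, y axis) per sample by group (x axis) in the last exon of Egr3, for the bin of largest rise on the left and the mean of the 7 unrepeated bins of the stretch on the right. Points are samples, bars are group means and whiskers are SDs. In the single bin the 10x samples lie between 14.98% and 42.6% and the 0x samples between 6.17% and 23.2%, so the groups overlap.

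**Figure D5:**
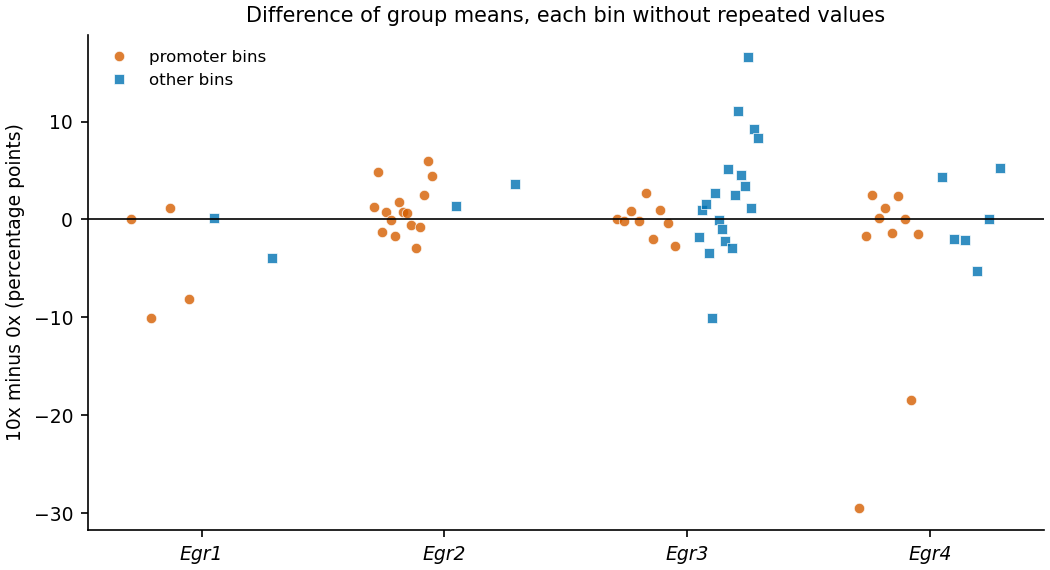
Difference of the group means, 10x minus 0x (percentage points, y axis), for each bin without repeated values by gene (x axis), with promoter bins as circles and the other bins as squares, each set in order along the gene. The 2 Egr4 promoter bins at -29.4 and -18.5 points lie below all bins of Egr1, Egr2 and Egr3, whose lowest is at -10.1 points, and the highest is the Egr3 bin at 16.6 points.

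In the earlier groups no bin of Egr1, Egr2 or Egr3 was called either. Between 2x and 0x 0 of 44 bins were called with limma, against 2.37% of all bins, and 2 had an unadjusted p under 0.05, against 9.05% of all. Between 4x and 0x 0 of 49 were called, against 1.06%, and 1 had an unadjusted p under 0.05, against 4.81%. Between 4x and 2x, with Egr4 included, 0 of 62 were called, against 1.66%, and 3 had an unadjusted p under 0.05, against 9.41%. Of the 84131 unrepeated bins in which every group varies, 3, 6 and 3 were called over the whole series in these comparisons, in the same order. The comparisons with 0x share its 4 samples.

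The Egr1 promoter in 2x was at 0.560%, 0%, 2.60%, 3.58%, 3.62% and 0%, a difference of -4.02 points from 0x (SE 1.91, limma adjusted p = 0.420, where 2.36% of promoters passed). In 4x it was at 8.47%, 2.58%, 3.39% and 3.62%, a difference of -1.23 points (adjusted p = 0.876, where 0.897% passed). Against the same 0x samples, samples 02 and 14 were above every 2x sample, as they were above every 4x and 10x sample. In the Egr1 upstream bin chr18:34861000-34861099, which was at 0% in all 0x samples, the 4x samples had 1.61%, 5.49%, 7.53% and 7.72%, as 1.45% of all such bins had every 4x sample above every 0x sample. That difference of 5.59 points (SE 1.56) had a limma adjusted p of 0.600.

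The Egr2 promoter differed from 0x by -0.526 points in 2x and by 0.0600 points in 4x, and the Egr3 promoter by 0.389 and 1.62 points (adjusted p between 0.763 and 0.986 for these). The 4x mean of Egr3 was 3.62% with and 2.89% without 4x sample 06, which had 5.81%.

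A slope of methylation on the number of cycles over all 20 samples was called in 0 of the 51 bins of Egr1, Egr2 and Egr3, against 0.286% of all bins, and 2 had an unadjusted p under 0.05, against 8.0%. Both lay in the last exon of Egr3. The steeper of them was the coding bin shown above, which averaged 14.1%, 4.77%, 16.4% and 30.6% in 0x, 2x, 4x and 10x and rose by 2.28 points per cycle (SE 0.583, limma adjusted p = 0.170). The promoter slopes were -0.275 points per cycle for Egr1, 0.143 for Egr2 and -0.0360 for Egr3, with limma adjusted p of 0.650, 0.590 and 0.953, where 0.33% of promoters passed. The Egr2 slope was 0.0880 without 10x sample 34. Of the 84131 unrepeated bins in which every group varies, a slope was called in 1 over the whole series.

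The 48 member bins with repeated values stand apart, since a repeated value adds no sample. At Egr2 a promoter bin lies 380 bp past the 5' end of the gene record but before the first curated TSS. It was at 100% in all 4 0x samples and at 0% in all 6 2x samples, with the same 49.0% in 4 of the 6 10x samples. In a coding exon of Egr1 the bin centred 1942 bp past the TSS had 95.4% in 3 of the 10x samples and 83.3% to 100% in the other three, against 52.9% in 2 and 50% and 66.7% in the other two of the 0x samples. An Egr1 bin had 80.7% in all 20 samples, and an Egr2 bin had 66.7% in all 20. With such bins included, 4 of 80 bins of Egr1, Egr2 and Egr3 were called between 10x and 0x, against 13.7% of all deposited bins that vary, and all 4 held repeated values. In the same way 4 of 71 were called between 2x and 0x (20.3% of all), 5 of 75 between 4x and 0x (12.2%) and, with Egr4, 7 of 100 between 4x and 2x (18.6%). The Egr2 promoter then was lower in 2x than in 0x by 4.10 points (limma adjusted p = 8.68e-05, where 22.6% of promoters passed), which without the repeated bins was -0.526 points and did not pass. It was higher in 4x than in 2x by 5.21 points (adjusted p = 0.000718, where 21.5% passed), which without the repeated bins was 0.586 points and did not pass either.

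Genes that work with the EGR factors or are induced with them were summarised from a list of 31 cofactors and immediate-early genes. Their promoters differed between 10x and 0x by a median of 0.403 points, against 0.106 points over all genes, with 18 higher and 13 lower, and 4 had an unadjusted p under 0.05, against 8.47% of all promoters. Of the 31, 2 passed a limma adjusted p of 0.05, both higher in 10x, where 0.943% of all promoters passed. Zfp36, which encodes an RNA-binding protein that speeds the decay of cytokine mRNAs, averaged 15.6% ± 3.47 in the 10x samples and 3.63% ± 2.08 in the 0x samples (SD) over 8 bins (limma adjusted p = 0.0149). It was also higher in 2x (12.8% ± 0.717) and in 4x (13.2% ± 0.808, SD). The single bins of Zfp36 were not looked at, so whether 1 of them carried the difference, or was filled with 0 or 100, was not tested. Jund, an AP-1 subunit, rested on 1 bin that was at 100% in every 2x, 4x and 10x sample and at 0% in every 0x sample, so its groups hold no spread and a fill cannot be told apart from measured values. The largest fall was at Dusp6, a phosphatase of ERK, by 5.56 points (SE 4.53, adjusted p = 0.684).

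Over the 20 samples the promoters most like that of Egr4 were those of Trip6, a LIM domain protein of focal adhesions (Pearson r = 0.779), S100pbp, which binds the calcium protein S100P in human cells (r = 0.776), and Tomm6, a subunit of the mitochondrial import complex (r = 0.770), out of 13216 genes with at least 3 unrepeated promoter bins. In the order 0x, 2x, 4x and 10x, Trip6 averaged 5.47%, 0.958%, 3.58% and 0.759%, and S100pbp 5.67%, 1.28%, 4.60% and 1.98%. Tomm6 was near the floor throughout, at 1.87%, 0.135%, 2.06% and 0.203%, with its highest mean in 4x. The correlations of the other family members with Egr4 were 0.388 for Egr1 (rank 1093), 0.146 for Egr2 (rank 4622) and 0.211 for Egr3 (rank 3497). All values of a sample come from the same library, and these are descriptions.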

How the data were processed

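Tools named in the submitters' processing notes were Trim Galore 0.4.3 (trimming), Bismark 0.23.1 (alignment, mm10) and methylKit 1.22.0. The deposited values are percent methylation per 100 bp bin from bins with a coverage above 10, filled by the authors with the group mean where a sample lacked the bin. They hold no read numbers, so the precision of single values is unknown. Of the bins on the 4 chromosomes used, 99.97% or more held a CpG of GRCm38. Bins were compared with limma 3.58.1 (R 4.3.3) between 2 groups at a time, two-sided, with Benjamini-Hochberg adjustment over every bin tested, and called at an adjusted p under 0.05 and 10 points. Promoters were means of bins within 1 kb of a curated RefSeq TSS, adjusted over all genes. The scripts were tested on simulated data. For limma the simulated differences were larger than any in the unrepeated Egr bins and lay in bins of intermediate methylation. That test therefore does not cover small differences near 0%. The genes and lists were chosen with earlier results of these data known. Named were the 4 members, list genes past the threshold or with the largest difference each way, and the 3 genes whose promoters correlated best with Egr4. Alternatives were the bins used, the promoter window, the scale, the variance model, the label number series and leaving out each sample.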

Additional observations from a re-analysis of the deposited data

Results flagged for a closer look

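Of 24 sets of samples examined (the promoters of the 4 genes and the 2 Egr4 bins of largest fall, in each group), 3 held a sample far from the rest. Chance gives about 1 in 20 for sets that are independent. These were not, as the 2 Egr4 bins are part of the Egr4 promoter and were picked for their fall, so the count cannot be judged against that rate. The Egr2 promoter had 5.25% in 10x sample 34, with 2.76% as the next and 1.62% as the lowest of that group. That sample had 21.2%, 26.9% and 12.8% in the 3 Egr2 promoter bins with the largest rise. The Egr4 bin centred 839 bp past the TSS had 15.2% in 2x sample 04 and 0% in the other 5 samples of 2x. The Egr4 bin centred 460 bp before the TSS had 12.3% in 10x sample 11, with 3.66% as the next.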

How the results depend on the processing

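Of 132 values under alternatives other than leaving out a sample, 116 were counted as the same, 11 changed direction, 3 moved and 2 passed the threshold. The same meant that direction and side of the threshold were kept. For Egr4 in 10x, which has no test, it meant a change smaller than the combined SD of the 2 groups, and for called bins an equal count. No main promoter difference had passed, so keeping the side of the threshold asked little. With all deposited bins that vary, 4 bins of Egr1, Egr2 and Egr3 were called in 10x in place of 0, the Egr1 promoter differed by 0.303 points in 10x and by 0.0879 points per cycle, and the Egr2 promoter passed in 2x against 0x (-4.10 points) and in 4x against 2x (5.21 points). With only bins in which every group varies, Egr2 differed by -0.451 points in 4x against 0x and by -0.266 points in 4x against 2x, Egr3 by -0.595 points in 4x against 2x, and Egr4 by -8.33 points in 10x. With bins upstream of the TSS only, Egr2 differed by -0.0383 points in 10x and Egr1 by 0.307 points in 4x, and Egr3 had no unrepeated bin. Within 500 bp of the TSS, Egr3 differed by 0.156 points in 10x and by 0.00810 points per cycle, and on a log2 ratio scale by 0.0149 in 10x. None of these changes of direction passed the threshold, and their cause was not tested. Egr4 differed in 10x by -3.75 points within 500 bp of the TSS and by -5.46 points with bins upstream of the TSS only. Both were counted as the same, although in both the 10x and 0x samples overlapped. Chosen after seeing the data, the Egr4 promoter differed by 0.217 points without its 2 bins of largest fall and by -24.0 points in those 2 alone.

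Leaving out each sample in turn, the 10x differences were -5.71 to -2.92 points for Egr1, 0.575 to 1.62 for Egr2, -0.418 to 0.343 for Egr3 and -5.12 to -4.18 for Egr4, with 0 bins of Egr1, Egr2 and Egr3 called in every case. Signs also changed for Egr1 in 4x against 0x (-2.70 to 0.0901), Egr2 in 2x against 0x (-0.937 to 0.0330), Egr2 in 4x against 0x (-0.351 to 0.619) and Egr3 in 2x against 0x (-0.161 to 0.810). The 4x against 2x differences were 1.47 to 3.43 points for Egr1, 0.361 to 0.913 for Egr2 (lowest without 4x sample 20, and also over 1.5 times off without 2x sample 03, 4x sample 06 or 4x sample 19), 0.503 to 1.78 for Egr3 and 1.26 to 3.19 for Egr4 (highest without 4x sample 19). The slopes were -0.323 to -0.184 points per cycle for Egr1, 0.0880 to 0.179 for Egr2 and -0.0623 to -0.0134 for Egr3, whose slope moved by over 1.5 times without any one of 0x samples 01 and 13, 2x sample 15 and 10x samples 11, 12, 32 and 33. None of these passed the threshold. No paired analysis was possible because the groups share no replicate numbers. With unknown depth, small differences between bins near 0 could not be judged against counting error.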

Other observations

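Some bins near the start sites that were at 0% in all 0x samples held methylation in 4x. They were picked after their values were seen. The Egr4 bin centred 739 bp past the TSS had 9.09%, 5.76%, 0% and 4.49% in the 4x samples and was at 0% in all samples of 0x, 2x and 10x. Its difference between 4x and 2x was 4.83 points (limma adjusted p = 0.244). The Egr3 bin centred 132 bp past the 5' end had 10.9% in 4x sample 06, 6.49% in 4x sample 20 and 0% in the other 18 samples. Sample 06 is the 4x sample with the lowest share of values at 0 or 100 (67.9%), and its part in these values was not tested.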
